A study of Danio rerio with 16 samples.

Results

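The effect of 17α-ethinylestradiol (EE2), the synthetic estrogen of contraceptive pills, was described in the testis of diploid zebrafish by comparing every diploid EE2 library with every diploid control library. These were 8 of the 16 libraries of a study that crossed ploidy with EE2. Each ploidy had 4 control and 4 EE2 libraries, all from testis of the AB strain, so controls and exposed fish shared strain and tissue. Whole male gonads gave total RNA that was depleted of ribosomal RNA and sequenced as strand-specific libraries, so every cell type of the organ, and any tissue attached to it, entered each library. The dose and duration of EE2, the age of the fish, the time of day and the number of fish behind each library are not stated in the labels or file headers. Read pairs per gene were counted by the submitters. Levels below are counts per 1000000 read pairs (CPM) after TMM scaling of library sizes, listed for replicates 1 to 4 in that order, and log2 changes are EE2 minus control with standard errors (SE). A gene was called when its p-value from edgeR's quasi-likelihood test, adjusted over all 23007 genes tested, was under 0.05. The labels do not say whether replicates are separate animals, and the p-values therefore describe the spread between libraries, which may be technical. Coordinates are those of GRCz11.

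Estrogens act through nuclear receptors that bind DNA and switch genes on or off. The classic fish readout is vitellogenin, the egg yolk precursor that the liver of laying females secretes and that exposed males also make. In the testis, Leydig cells between the tubules turn cholesterol into androgens, with 11-ketotestosterone as the main one in fish, under the control of pituitary luteinizing hormone. Estrogens are known to feed back on that hormone as well as to act on the gonad itself.

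Diploid libraries held 7052508 to 17369549 read pairs. Diploid control replicate 1 stood apart: rn7sl1, the RNA of the signal recognition particle, made up 13.29% of the library (Wilson 95% limits 13.266% and 13.314%, counting error only) and 5.23% to 7.77% of the other diploid libraries. Mitochondrial genes made up 6.86% of it and 1.75% to 2.96% of the others. Markers of other organs differed between libraries. Digestive enzyme genes of the exocrine pancreas summed to 688, 209.7, 178 and 16020.1 CPM in controls and 10239, 148, 947 and 1289.9 CPM after EE2. The 36 liver genes summed to 564, 192, 229.8 and 921 CPM and 659, 290.3, 1272 and 243 CPM. The tissue matched its label: the germ cell gene ddx4 stood at 821 to 1050.2 CPM in controls and 870.5 to 1093 CPM after EE2, and the Sertoli cell gene amh at 560.3 to 885 and 711 to 1223 CPM. The ovarian genes cyp19a1a and foxl2a had at most 2 read pairs in any diploid library.

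EE2 changed far more genes upward than downward. Of the 23007 genes tested, 543 were called (2.36%), 446 of them higher (1.94%) and 97 lower (0.422%), so that 82.14% of called genes rose. An unadjusted p under 0.05 was reached by 3889 genes (16.9%) with edgeR. Counts at that limit in the lists below are to be read beside this share. At least 2-fold changes made up 257 of the rises and 60 of the falls, and at least 8-fold changes 26 and 6. Those 6 falls included ENSDARG00000113858 and its chromosome 1 neighbours si:ch211-160d14.9 and si:ch211-160d14.15, the neighbours named after their values were seen. Control replicate 1 was low for these genes too. The median log2 change was 1.08 among the rises, -1.23 among the falls and -0.014 over all genes tested. The EE2 libraries did not overlap the controls for 519 of the 543. Over all genes tested that held for 2029 (8.82%), with EE2 above in 1257 (5.46%) and below in 772 (3.36%). The called rises summed to 11367 CPM in controls and 25136.6 CPM after EE2, and the called falls to 6920.4 and 2482.2 CPM. The count depended on single libraries: it was 251 without EE2 replicate 3, 285 without control replicate 2, 360 without EE2 replicate 1, and 68 without both EE2 replicates 1 and 3. The spread behind the 543 was estimated from 15 libraries of both ploidies. The 8 diploid libraries alone gave 193 calls, and all 16 libraries gave 257. DESeq2 called 1207, of which 73.65% rose.

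**Figure D1:**
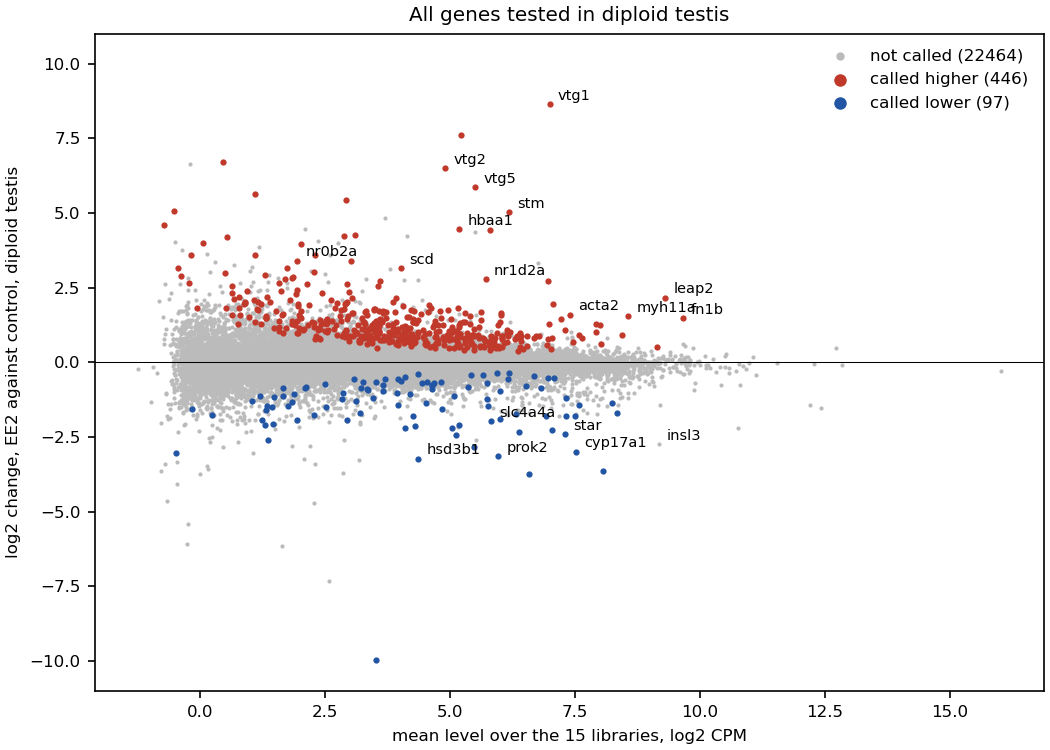
Log2 change between EE2 and control in diploid testis against the mean log2 CPM over the 15 libraries fitted, 1 point per gene tested. Red points are the 446 genes called higher and blue points the 97 called lower; vtg1 lies at the top and the steroidogenic genes hsd3b1, cyp17a1 and star among the falls, while insl3 is grey because it was not called.

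Of 8 vitellogenin genes, 6 rose. The level of vtg1 (ENSDARG00000092233, chromosome 22, 24730965 to 24738188) was 1.496, 1.02, 0.963 and 0.569 CPM in controls and 136, 89.9, 1220.3 and 95.6 CPM after EE2, which gave a log2 change of 8.65 ± 1.28 (SE, adjusted p = 0.0031). Every EE2 library lay far above every control, and replicate 3 was the highest by a wide margin. The same library was highest for vtg2 (0.997, 0.705, 1.28 and 1.07 against 21.2, 14.7, 300.2 and 27.0 CPM, log2 change 6.50 ± 1.31 SE, adjusted p = 0.019) and for vtg5 (1.33, 3.37, 2.78 and 1.42 against 42.1, 28.3, 427 and 36.6 CPM, log2 change 5.87 ± 1.16 SE, adjusted p = 0.018). Changes of vtg4, vtg6 and vtg7 were 4.21, 3.97 and 3.59 on the log2 scale, from control levels under 1.5 CPM. Their calls ended in 5, 6 and 5 of 8 omissions of 1 library, and those of vtg2 and vtg5 in 3 each. Several of the vitellogenin genes are close copies in sequence, and reads that fit more than 1 of them may be lost or misplaced in counting. Liver genes were also highest in EE2 replicate 3 and next in control replicate 4 (921 CPM). They summed to 659, 290.3, 1272 and 243 CPM in the EE2 libraries. Without EE2 replicate 3, vtg1 kept a log2 change of 6.81. The part of liver tissue in the vitellogenin values of the EE2 libraries was not tested.

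Among the 20 tested genes of a list of estrogen-responsive genes, 7 rose, 0 fell and 13 were not called, with a median log2 change of 0.81. The list was drawn up with earlier results of these libraries known. Besides the 6 vitellogenins the riser was pgr, the nuclear progesterone receptor and a textbook estrogen target, at 41.9, 31.7, 33.6 and 44.8 CPM in controls and 65.7, 82.7, 112 and 69.9 CPM after EE2 (log2 change 1.12 ± 0.19 SE, adjusted p = 0.005). Its groups did not overlap. The other two vitellogenin genes, named after their values were seen, were not called. The gene vtg8 stood at 1.66, 1.33, 1.61 and 1.85 CPM in controls and 1.76, 1.19, 1.49 and 2.35 CPM after EE2 (log2 change 0.05, adjusted p = 0.97), with overlapping groups, while vtg3 was also highest in EE2 replicate 3 (3.55 to 7.31 against 9.46 to 108 CPM, log2 change 2.75, adjusted p = 0.077). The receptors that bind estrogen were not called. The gene esr1 stood at 3.49, 1.65, 2.03 and 3.63 and 6.36, 3.51, 5.57 and 4.12 CPM (0.86, adjusted p = 0.25), with overlapping groups. The log2 change was 0.47 (adjusted p = 0.062) for esr2a and 0.29 (adjusted p = 0.45) for esr2b. For esr2a every EE2 library (52.7 to 62.6 CPM) lay above every control (35.0 to 48.0 CPM). It was called in 1 single omission and 3 other alternative runs. The brain aromatase gene cyp19a1b was not analysed here. The 7 rises became 3, 2, 2 and 4 without control replicates 1 to 4. They numbered 4 without EE2 replicate 3 and 1 without EE2 replicates 1 and 3. With limma-voom 2 genes of the list were called, pgr among them, and the calls of all 6 vitellogenins ended.

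Large rises also came from genes that were not counted in that list. The list as written named f13a1a.1 and f13a1a.2, which matched no symbol in the files, so genes of this family under the symbol F13A1 were left out of its count. F13A1 (ENSDARG00000045453, chromosome 24, 2495197 to 2515623), which encodes the A chain of coagulation factor XIII, rose from 1.496, 0.0784, 0.535 and 0.569 to 85.9, 96.5, 187 and 82.0 CPM (log2 change 7.62 ± 0.56 SE, adjusted p = 3.5e-05). A second gene of that symbol, ENSDARG00000094832, rose by a log2 of 5.63, and reads shared between such copies may not have been counted. The gene stm, known as starmaker for the otolith protein it encodes, went from 3.16, 1.18, 17.9 and 1.78 to 174, 246, 222 and 129.8 CPM (log2 change 5.04 ± 0.81 SE, adjusted p = 0.0049). One control, replicate 3, was higher than the other controls, and every EE2 library was higher still. The amine oxidase gene aoc1 changed by 4.26 ± 0.72 (SE, adjusted p = 0.0061) and the tight junction gene cldn3c by 3.58 ± 0.79 (SE, adjusted p = 0.028). For cldn3c the highest control, 0.569 CPM, nearly met the lowest EE2 library, 0.627 CPM, and its call ended without any 1 control. Among called genes the largest gains in read pairs were those of fn1b, leap2, txnipa, myh11a and vtg1. The antimicrobial peptide gene leap2 rose from 448, 237, 209 and 244 to 1464, 1760.0, 1332 and 541 CPM (log2 change 2.16 ± 0.45 SE, adjusted p = 0.021), a call that ended in 5 of 8 omissions of 1 library. The arrestin family gene txnipa, which restrains glucose uptake in mammals, rose from 201, 133, 202 and 204 to 459, 466, 483 and 388 CPM (log2 change 1.28 ± 0.16 SE, adjusted p = 7.6e-04).

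Genes along androgen synthesis fell, from cholesterol import to the 11β-hydroxylation typical of fish. Of the 24 tested genes of the Leydig cell list, 9 fell, 0 rose and 15 were not called, with a median log2 change of -0.62. The first step is cholesterol transport into mitochondria by Star. The star gene (ENSDARG00000006137, chromosome 8, 44703854 to 44707937) stood at 729, 202, 199 and 307 CPM in controls and 45.4, 68.6, 82.7 and 75.7 CPM after EE2 (log2 change -2.40 ± 0.42 SE, adjusted p = 0.0078). Control replicate 1 was the highest, and the lowest control was still more than 2-fold above the highest EE2 library. Side-chain cleavage by Cyp11a1 follows: the 2 genes with the symbol CYP11A1 changed by -2.21 (ENSDARG00000092696, 50.0, 21.2, 30.1 and 38.0 against 5.41, 8.33, 7.98 and 8.00 CPM) and -1.68 on the log2 scale (ENSDARG00000002347). Their electron donor fdx1b went from 72.6, 22.2, 22.6 and 43.5 to 9.60, 12.4, 11.4 and 12.3 CPM (log2 change -1.80 ± 0.33 SE, adjusted p = 0.0098).

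The enzymes of the next steps fell too. The level of hsd3b1 (ENSDARG00000069926, chromosome 9, 21194445 to 21200464), which makes progesterone from pregnenolone, was 52.5, 18.7, 28.4 and 46.8 CPM in controls and 2.299, 2.94, 3.79 and 6.70 CPM after EE2 (log2 change -3.22 ± 0.43 SE, adjusted p = 0.0012). The level of cyp17a1 (ENSDARG00000033566, chromosome 13, 28601195 to 28610965), the hydroxylase and lyase that leads to androgens, was 417, 254, 313 and 377 and 32.7, 46.4, 27.4 and 65.3 CPM (log2 change -2.99 ± 0.31 SE, adjusted p = 3.6e-04). No library of either gene overlapped between the groups. Its paralog cyp17a2, named after its values were seen, changed by -1.37 (adjusted p = 0.031), a call that ended in 6 of 8 single omissions. The 11β-hydroxylase gene cyp11c1, needed for 11-ketotestosterone, stood at 84.1, 59.098, 77.6 and 140.0 and 20.8, 45.9, 41.2 and 46.7 CPM (log2 change -1.22 ± 0.29 SE, adjusted p = 0.043), and this call ended in 6 of 8 as well. The transcription factor gene nr5a1a, an activator of steroidogenic genes, changed by -0.68 ± 0.15 (SE, adjusted p = 0.029), a call that ended in 5 of 8.

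Other members were not called. The Leydig cell peptide hormone gene insl3 had 2209, 380.1, 753 and 1064 CPM in controls and 20.4, 336, 162 and 141 CPM after EE2, and did not pass (log2 change -2.74, adjusted p = 0.056). Its groups did not overlap, and its spread within groups was wide. The luteinizing hormone receptor gene lhcgr stood at 11.97, 9.64, 10.8 and 14.5 and 4.87, 7.21, 18.8 and 5.64 CPM (-0.33, adjusted p = 0.65), with EE2 replicate 3 above every control. Later steroid enzymes hsd17b3 (0.27, adjusted p = 0.63) and hsd11b2 (-0.20, adjusted p = 0.86), named after their values were seen, were not called. Of the 30 genes of cholesterol synthesis and uptake edgeR called 0, DESeq2 1 and limma-voom 0, with 5 at an unadjusted p under 0.05, and hmgcra (0.15, adjusted p = 0.68) and ldlra (0.01, adjusted p = 0.99) overlapped between the groups. In bulk tissue, fewer Leydig cells and less RNA per Leydig cell cannot be told apart. The list had 6 to 11 falls in the single omissions and 3 without EE2 replicates 1 and 3.

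Repressors of steroidogenic transcription rose in the same libraries. The nr0b1 gene (Dax1), which blocks Nr5a1, went from 4.32, 6.82, 5.99 and 8.96 to 23.1, 21.2, 28.1 and 16.6 CPM (log2 change 1.75 ± 0.22 SE, adjusted p = 8.8e-04). The related nr0b2a (Shp), known from bile acid signalling in liver, went from 0.831, 0.549, 0.749 and 1.64 to 11.8, 10.5, 10.8 and 8.23 CPM (log2 change 3.40 ± 0.42 SE, adjusted p = 8.8e-04). For both, each EE2 library exceeded each control. With pgr these were the 3 called among 36 hormone receptors and regulators (median log2 0.23), all higher. The androgen receptor gene ar (0.17, adjusted p = 0.61) and the follicle-stimulating hormone receptor gene fshr (-0.22, adjusted p = 0.64) were not called. Of 22 genes of steroid and estrogen metabolism only cyp1c2, a cytochrome P450 known as a target of the aryl hydrocarbon receptor, was called, from 12.8, 15.4, 9.96 and 10.2 to 48.6, 28.3, 41.6 and 18.9 CPM (log2 change 1.51 ± 0.34 SE, adjusted p = 0.03). That call ended in 6 of 8 single omissions.

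**Figure D2:**
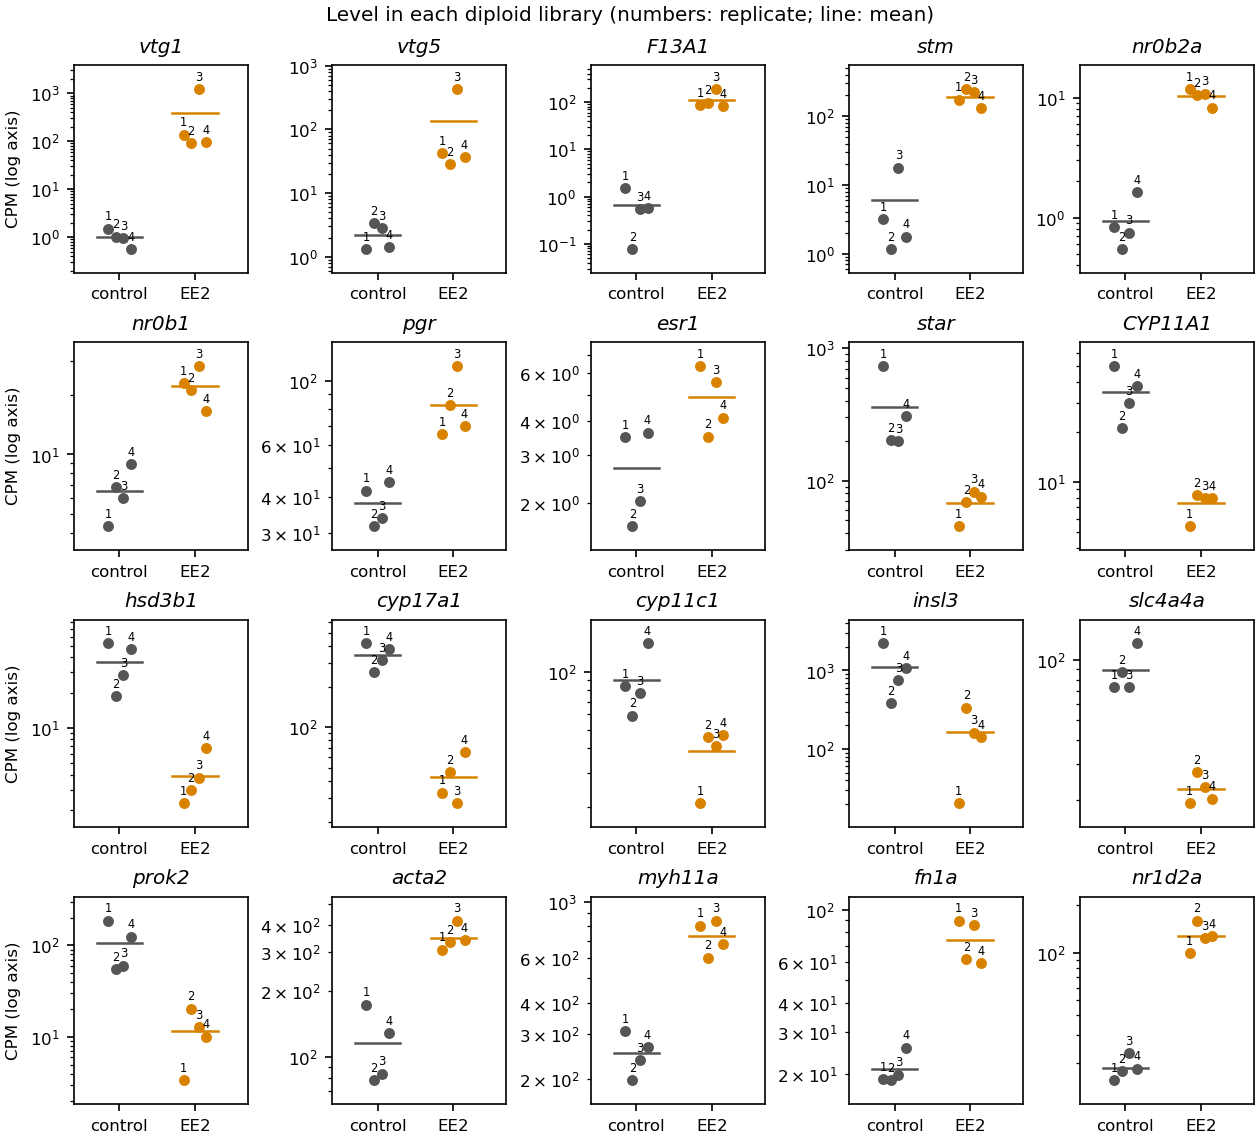
CPM in each diploid library, on log axes, for 20 genes of estrogen response, steroid synthesis, smooth muscle, matrix and clock; numbers are replicates and lines are group means. EE2 replicate 3 stands apart for vtg1 (1220 CPM) and vtg5, EE2 replicate 1 is the lowest library for insl3, and among these 20 genes only esr1 has overlapping groups.

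Sertoli cells support the germ cells. Of 17 Sertoli cell genes edgeR called 0 (median log2 0.17), with 5 at an unadjusted p under 0.05, while DESeq2 called 3 and limma-voom 2. The log2 change was 0.38 (adjusted p = 0.48) for the hormone gene amh, 0.40 (adjusted p = 0.18) for gsdf, a gonadal factor of the TGF-beta family, and 0.05 (adjusted p = 0.91) for the male factor gene dmrt1. It was -0.83 (adjusted p = 0.065) for sox9a, with every EE2 library below every control. For the gonadal growth factor gene igf3 it was 0.65 (adjusted p = 0.76), at low levels of 0.640 to 0.784 CPM in controls and 0.747 to 1.88 CPM after EE2. In the germ cell lists the share of called genes was near that of all genes tested (2.36%): 1 of 18 for germ cells and spermatogonia, 0 of 26 for meiosis, 1 of 37 for spermatids and sperm flagellum and 0 of 32 for the mitotic cell cycle. Their medians were -0.13, -0.25, -0.05 and -0.13. In the meiosis list 8 had an unadjusted p under 0.05 and DESeq2 called 1 and limma-voom 0; the mitotic list had 4, 1 and 0. Negative changes were found in 20 of 26 meiosis genes, 20 of 37 genes of spermatids and sperm flagellum and 27 of 32 mitotic genes. Over all genes tested 48.14% had a positive change. Of the 18 genes of germ cells and spermatogonia 14 had a negative change and 4 a positive one. The 1 called, the spermatogonial factor gene zbtb16a (Plzf), stood at 17.95, 25.3, 23.8 and 32.7 CPM in controls and 66.0, 53.4, 79.6 and 56.7 CPM after EE2 (log2 change 1.35 ± 0.28 SE, adjusted p = 0.022), a call that ended in 5 of 8 single omissions. The gene spata18, which acts in mitochondrial quality control in mammals, rose from 27.9, 33.0, 27.7 and 27.9 to 49.5, 51.1, 53.1 and 47.2 CPM (log2 change 0.78 ± 0.11 SE, adjusted p = 0.001), and no single omission ended its call. The meiotic gene sycp3 stood at 109, 95.9, 99.6 and 113.1 and 73.3, 90.1, 62.2 and 82.9 CPM (-0.44, adjusted p = 0.13), and the log2 change of ddx4 was 0.03 (adjusted p = 0.91). Of 13 oocyte genes edgeR called 0, with 2 at an unadjusted p under 0.05, DESeq2 1 and limma-voom 0. The ovarian somatic list had 2 of 12 higher, which were nr0b1 and pgr again.

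Genes of contractile cells rose. Of 26 smooth muscle and peritubular cell genes, 9 rose, 0 fell and 17 were not called (median log2 0.77), and all single omissions left 9 to 11. Smooth muscle actin acta2 went from 173, 78.3, 83.9 and 129 to 309, 333, 418 and 340.5 CPM (log2 change 1.60 ± 0.21 SE, adjusted p = 0.001), and the smooth muscle myosin heavy chain myh11a (ENSDARG00000009782, chromosome 6, 8499865 to 8580858) from 309, 198, 237 and 266 to 804, 602, 842 and 680.1 CPM (log2 change 1.54 ± 0.16 SE, adjusted p = 2.1e-04). Tropomyosin tpm2 rose from 114, 89.4, 89.5 and 107 to 255, 269, 312 and 249.9 CPM (log2 change 1.44 ± 0.12 SE, adjusted p = 3.5e-05), and the myosin light chain kinase mylkb changed by 1.59 ± 0.19 (SE, adjusted p = 7.5e-04). In each of these 4 genes the lowest EE2 library was above the highest control. The remaining called members, named after their values were seen, were rgs5b (2.61), cald1b (2.54), tagln (1.94), cnn1b (1.48) and tpm1 (0.88, log2 changes), which encode a pericyte regulator of G protein signalling and actin-binding proteins of smooth muscle. Smooth muscle genes had their highest sum in EE2 replicate 3: 1511, 1101, 1304 and 1316 CPM in controls and 2780.2, 2502, 3159 and 2539 CPM after EE2.

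Extracellular matrix genes rose with them. Collagens had 7 of 26 higher (median log2 0.61), matrix glycoproteins and proteoglycans 9 of 41 (0.36), and matrix processing enzymes 7 of 36 with 1 lower (0.37). The fibronectin gene fn1a went from 18.9, 18.7, 19.8 and 25.8 to 89.8, 61.4, 85.9 and 59.15 CPM (log2 change 1.83 ± 0.19 SE, adjusted p = 2.4e-04), and fn1b from 1071, 279, 596 and 455 to 1329, 1011, 2460.0 and 1929 CPM (log2 change 1.49 ± 0.37 SE, adjusted p = 0.048), with control replicate 1 above EE2 replicate 2 for fn1b. The fn1b call ended in 6 of 8 single omissions. Basement membrane genes followed: the type IV collagen gene col4a2 at 0.77, perlecan hspg2 at 0.90, and laminins lama5 at 0.71 and lamb2 at 1.03 (log2 changes). The type VI collagen genes col6a1 and col6a2, of the microfibrils around cells, changed by 1.29 and 1.09, and the fibrillar gene col5a1 by 0.88. Of the enzymes, the membrane protease gene mmp14b went from 19.6, 17.1, 20.1 and 18.98 to 49.6, 45.3, 58.4 and 43.7 CPM (log2 change 1.38 ± 0.12 SE, adjusted p = 3.5e-05), the collagen hydroxylase gene plod2 changed by 1.67 ± 0.22 (SE, adjusted p = 0.001) and the crosslinking oxidase gene loxl2a by 1.88 ± 0.29 (SE, adjusted p = 0.0029). The fall was serpinh1b, which encodes a collagen chaperone (Hsp47), from 9.97, 5.88, 6.96 and 5.55 to 2.43, 2.19, 1.90 and 1.65 CPM (log2 change -1.78 ± 0.30 SE, adjusted p = 0.0048). Single omissions left 5 to 7 collagens, 3 to 7 glycoproteins (3 without EE2 replicate 3, 5 without control replicates 2 or 3 or EE2 replicate 1) and 5 to 8 enzymes higher. Without EE2 replicates 1 and 3 the counts were 0, 1 and 3.

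Endothelial genes had 6 of 33 higher and 0 lower (median log2 0.61), and 32 of 33 had a positive change. Over all genes tested 1.94% were called higher and 48.14% had a positive change. The endothelial transcription factor gene sox7 went from 6.81, 4.94, 5.35 and 7.25 to 20.7, 15.3, 19.5 and 13.3 CPM (log2 change 1.50 ± 0.17 SE, adjusted p = 4.2e-04), and no single omission ended its call. The adhesion genes pecam1a and cdh5 and the vascular growth factor receptor gene kdr changed by 0.92, 0.83 and 0.63 on the log2 scale, calls that ended in 3, 4 and 6 of 8 single omissions. EE2 replicate 1 was the highest library for all 4, and also for the erythrocyte genes described below; the part of blood vessels and blood content in these changes was not tested. The count was 1 without control replicate 2, EE2 replicate 1 or EE2 replicate 3, 2 without control replicate 3, 3 without control replicate 1, and 1 without EE2 replicates 1 and 3 together.

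**Figure D3:**
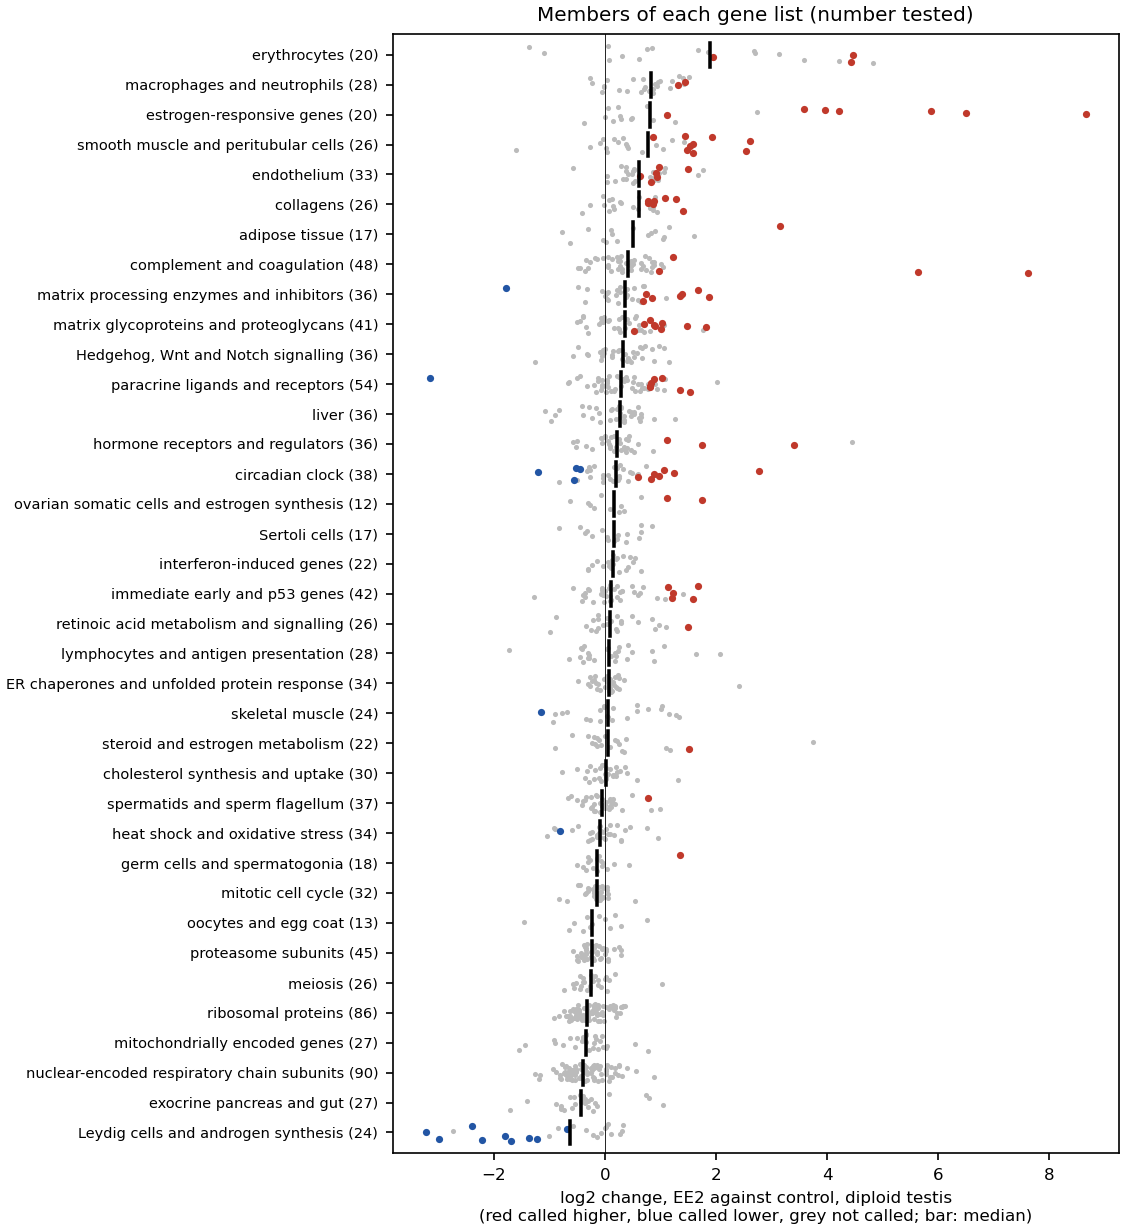
Log2 change of each tested member of 37 gene lists in diploid testis, with the number tested in parentheses and a bar at the median; red and blue points are called genes. The Leydig cell list holds 9 called falls, and the smooth muscle, collagen and matrix lists hold no called fall apart from serpinh1b; the all-gene median is -0.014.

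Of 54 genes of paracrine ligands and receptors, 7 rose and 1 fell (median log2 0.30). The fall was prok2, the secreted peptide prokineticin 2, from 187, 54.9, 60.3 and 125 to 3.38, 20.4, 12.9 and 10.1 CPM (log2 change -3.15 ± 0.50 SE, adjusted p = 0.0044), which no single omission ended. The rises included the receptor genes pdgfra (36.9, 24.2, 28.9 and 33.5 against 61.8, 44.4, 74.2 and 47.3 CPM, log2 change 0.89 ± 0.17 SE, adjusted p = 0.011) and fgfr2 (0.81 ± 0.14 SE, adjusted p = 0.0073), and anos1a, which encodes the matrix protein anosmin and rose by 1.53 ± 0.29 (SE, adjusted p = 0.011). Rises on the list numbered 3 without control replicate 2 or EE2 replicate 3, 4 without control replicate 3 or 4, and 0 without EE2 replicates 1 and 3. Of 36 genes of Hedgehog, Wnt and Notch signalling edgeR called 0 (median log2 0.34, 12 at an unadjusted p under 0.05), DESeq2 5 and limma-voom 1. Of 26 retinoic acid genes only cyp26b1, which degrades retinoic acid and is known in mice to hold back meiosis in fetal testis, was called: it went from 2.83, 2.12, 2.25 and 2.49 to 6.36, 5.14, 10.4 and 5.29 CPM (log2 change 1.50 ± 0.24 SE, adjusted p = 0.0043).

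Circadian clock genes moved in both directions, with 7 of 38 higher and 4 lower. The nuclear receptor gene nr1d2a, a Rev-erb repressor, rose from 15.5, 17.6, 22.9 and 18.3 to 99.4, 159.9, 124 and 128 CPM (log2 change 2.78 ± 0.30 SE, adjusted p = 3.9e-04), and no library overlapped. The Rev-erb gene nr1d1, named after its values were seen, fell (13.96, 8.78, 14.02 and 16.2 against 6.90, 4.198, 5.34 and 6.94 CPM, log2 change -1.20 ± 0.28 SE, adjusted p = 0.034). Other rises were cry3b (0.98), clocka (0.82) and nfil3-5 (1.25), which encode a cryptochrome, the Clock activator and a repressor of the E4bp4 type. The core genes per1b (-0.45) and per3 (-0.52), also named after their values were seen, fell. Falls numbered 1 without control replicate 3, control replicate 4, EE2 replicate 2 or EE2 replicate 3. The hour of sampling is not stated in the labels, and its part in these changes was not tested.

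The summed erythrocyte and macrophage genes were highest in EE2 replicate 1. Macrophage genes summed to 888, 333, 519 and 509 CPM in controls and 1217, 523, 754 and 676 CPM after EE2. Their sum in control replicate 1 was thus above that in EE2 replicates 2 to 4. Erythrocyte genes summed to 238, 225, 202 and 263 CPM in controls and 2439.9, 295, 325 and 325 CPM after EE2, and 3 of 20 were called higher. The globin gene hbaa1 stood at 1.99, 3.68, 4.82 and 9.95 and 415, 18.05, 22.5 and 23.4 CPM (log2 change 4.47 ± 1.04 SE, adjusted p = 0.041), and a globin gene with the symbol HBE1 (ENSDARG00000089087) at 8.48, 7.603, 5.35 and 11.4 and 613, 23.2, 38.6 and 39.4 CPM (log2 change 4.43 ± 0.98 SE, adjusted p = 0.032). Even the lowest EE2 library lay above every control for both, and globin genes share sequence with near copies. Without EE2 replicate 1 the log2 changes were 2.01 and 2.03. The receptor of the red cell hormone erythropoietin, epor, changed by 1.95 ± 0.47 (SE, adjusted p = 0.042), or by 1.05 without EE2 replicate 1. The water channel gene AQP1 (ENSDARG00000023713), which is not on the erythrocyte list, changed by 3.17 ± 0.49 (SE, adjusted p = 0.0029). It was also highest in EE2 replicate 1, and it kept its call in every alternative run. Leaving out any 1 control left 0 erythrocyte genes called, while 9 were called without EE2 replicate 2 and 7 without EE2 replicate 4. Without EE2 replicate 1 the erythrocyte list kept 3 called genes, with a median log2 change of 0.72 beside 1.90. The macrophage list had 2 of 28 higher (median log2 0.83): the leukocyte actin bundler lcp1 (7.31, 7.21, 6.96 and 9.74 against 41.3, 11.6, 17.6 and 16.2 CPM, log2 change 1.45 ± 0.32 SE, adjusted p = 0.029) and the granulin gene grna (1.32 ± 0.30 SE, adjusted p = 0.031). Without EE2 replicate 1 the log2 change of lcp1 was 0.95. The macrophage count was 0 without control replicate 2 or EE2 replicate 3, 1 without control replicate 3 or EE2 replicate 1, and 10 without EE2 replicate 2. The macrophage median was 0.55 without EE2 replicate 1. In that list 16 had an unadjusted p under 0.05, and DESeq2 called 13 and limma-voom 1, all higher. Lymphocyte and interferon-induced genes had 0 edgeR calls of 28 and 22. At an unadjusted p under 0.05 they held 6 and 5, beside 16.9% of all genes tested. DESeq2 called 0 and 1, and limma-voom 0 of each. Of 48 complement and coagulation genes 4 rose, the F13A1 pair with tfpia (1.23) and anxa2a (0.97, log2 changes). The anxa2a call ended in 5 of 8 single omissions.

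Metabolic and signalling genes added single large changes. The fatty acid desaturase gene scd (ENSDARG00000033662, chromosome 12, 48390715 to 48404672) went from 5.32, 3.21, 4.92 and 2.91 to 41.3, 33.0, 47.4 and 20.2 CPM (log2 change 3.15 ± 0.51 SE, adjusted p = 0.0044), the only call among 17 adipose tissue genes. Immediate early and p53 genes had 5 of 42 higher: the cytokine feedback gene socs3a (32.6, 21.6, 35.3 and 34.0 against 103, 111, 91.4 and 90.9 CPM, log2 change 1.68 ± 0.27 SE, adjusted p = 0.0045), jun (1.23 ± 0.22 SE, adjusted p = 0.0075), the MAP kinase phosphatase gene dusp6 (1.21 ± 0.19 SE, adjusted p = 0.0029), the kinase gene plk3 (1.14 ± 0.15 SE, adjusted p = 9.6e-04) and dusp2, named after its values were seen. Of 34 heat shock and oxidative stress genes only hspa8b was called, which encodes a constitutive Hsp70 and fell from 131, 125, 113.3 and 111 to 70.5, 66.9, 77.0 and 60.0 CPM (log2 change -0.81 ± 0.11 SE, adjusted p = 0.0012). Liver and exocrine pancreas lists had 0 edgeR calls of 36 and 27, with 1 and 0 at an unadjusted p under 0.05; DESeq2 called 1 and 0, and limma-voom 0 of each. Of 24 skeletal muscle genes the myosin gene myhz1.3 fell (-1.14 ± 0.22 SE, adjusted p = 0.013).

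Falls outside steroid synthesis were spread over several kinds of gene. The bicarbonate transporter gene slc4a4a (ENSDARG00000013730, chromosome 5, 45746457 to 45877387) fell from 73.5, 87.2, 73.3 and 121 to 19.2, 27.4, 23.1 and 20.2 CPM (log2 change -1.98 ± 0.19 SE, adjusted p = 1.6e-04) with no overlap, and kept its call in every alternative run. The water channel gene aqp4 changed by -2.14 ± 0.45 (SE, adjusted p = 0.023), a call that ended in 4 of 8 single omissions and with limma-voom. Genes known from neurons that fell were caln1 (-2.10), a calcium-binding protein gene, rtn4r (-2.08), the Nogo receptor gene, syt5a (-1.94), a synaptotagmin gene, and lrtm2b (-2.59, log2 changes). Their control levels were low, from 2.03 to 8.46 CPM. The gene mctp1b changed by -2.20, or by -1.27 without control replicate 4, with control replicate 4 at 145 CPM and the remaining controls between 24.3 and 37.8 CPM, and its call ended in 4 of 8 single omissions. Among called genes the largest losses of read pairs were those of star, cyp17a1, si:ch211-113a14.10 (794, 373, 361 and 371 against 148, 210.1, 48.0 and 177 CPM), ENSDARG00000113858 and si:dkey-23a13.17. The last 3 carry no functional name in the files, and their calls ended in 3, 6 and 0 of 8 single omissions. By position, si:ch211-113a14.10 on chromosome 25 and si:dkey-23a13.17 on chromosome 7 lie within the histone cluster intervals described below. The linker histone gene h1l1 changed by -2.25 ± 0.34 (SE, adjusted p = 0.0029).

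Genes of general cell machinery held 0 edgeR calls in diploids: 0 of 86 ribosomal proteins, 0 of 90 nuclear-encoded respiratory chain subunits, 0 of 45 proteasome subunits, 0 of 34 ER chaperones and 0 of 27 mitochondrially encoded genes. Their medians of -0.31, -0.39, -0.23, 0.08 and -0.33 became, without control replicate 1, 0.17, 0.07, 0.001, 0.09 and 0.14. At an unadjusted p under 0.05 these lists held 3, 12, 3, 5 and 2 genes; DESeq2 called 1, 1, 0, 2 and 0, and limma-voom 0, 1, 0, 0 and 0. Ribosomal protein genes summed to 57317, 21308, 21419 and 21532 CPM in controls and 25582, 23069, 23916 and 24142 CPM after EE2.

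**Figure D4:**
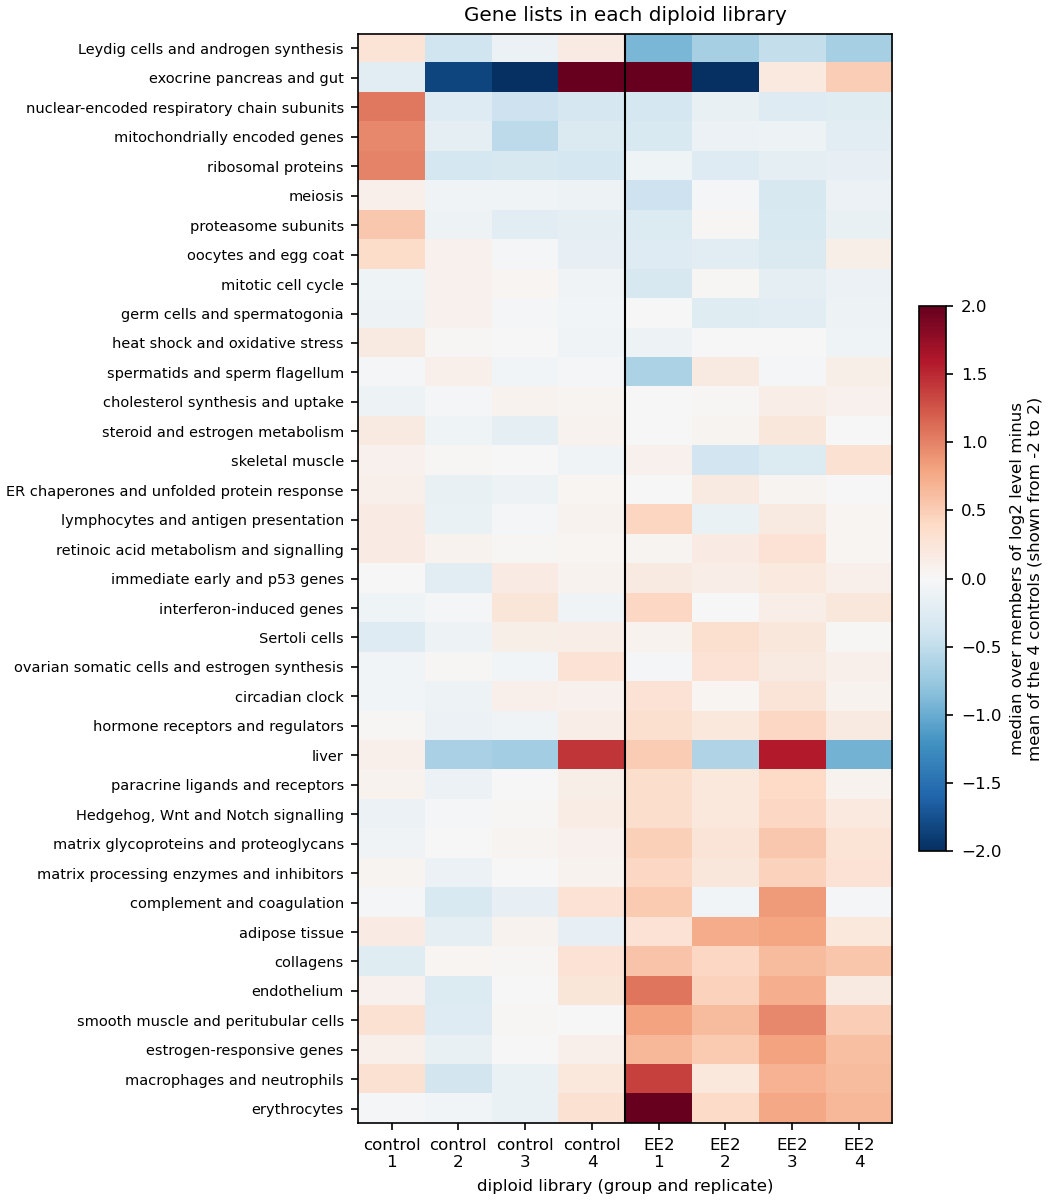
Median over the tested members of 37 gene lists of the log2 level, log2(CPM + 0.5), minus the mean of the 4 controls, for each diploid library; colours stop at -2 and 2. Control replicate 1 is high for the ribosomal, respiratory and mitochondrial lists, control replicate 4 and EE2 replicate 1 for exocrine pancreas, and all 4 EE2 libraries are low for the Leydig cell list and high for the smooth muscle and collagen lists.

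Triploid testis was exposed to EE2 in the same study, with its own controls, and 3 EE2 libraries entered the fit because the submitters titled the fourth an outlier. There 24 genes were called (0.104%), of which 22 were among the 543 of diploids and all 22 moved the same way. They included vtg1 (8.65 in diploids, 7.61 in triploids), F13A1 ENSDARG00000045453 (7.62 and 5.37), cyp17a1 (-2.99 and -2.50) and hsd3b1 (-3.22 and -3.44, log2 changes). Of the 446 rises in diploids 394 (88.34%) had a positive change in triploids, against 51.07% of all genes tested, with a median of 0.38. Of the 97 falls 77 (79.38%) had a negative change, with a median of -0.25. Since these genes were picked by their diploid p, their diploid changes cannot be set against the triploid ones for size. The test of the difference itself, the interaction of ploidy and EE2, called 0 genes with edgeR (1223 at an unadjusted p under 0.05, 5.32% of those tested). DESeq2 called 43 and limma-voom 0. The Leydig cell list had a median of -0.57 in triploids beside -0.62 in diploids. Collagens stood at -0.12 beside 0.61. Smooth muscle genes stood at 0.44 beside 0.77. Differences between list medians were not tested.

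**Figure D5:**
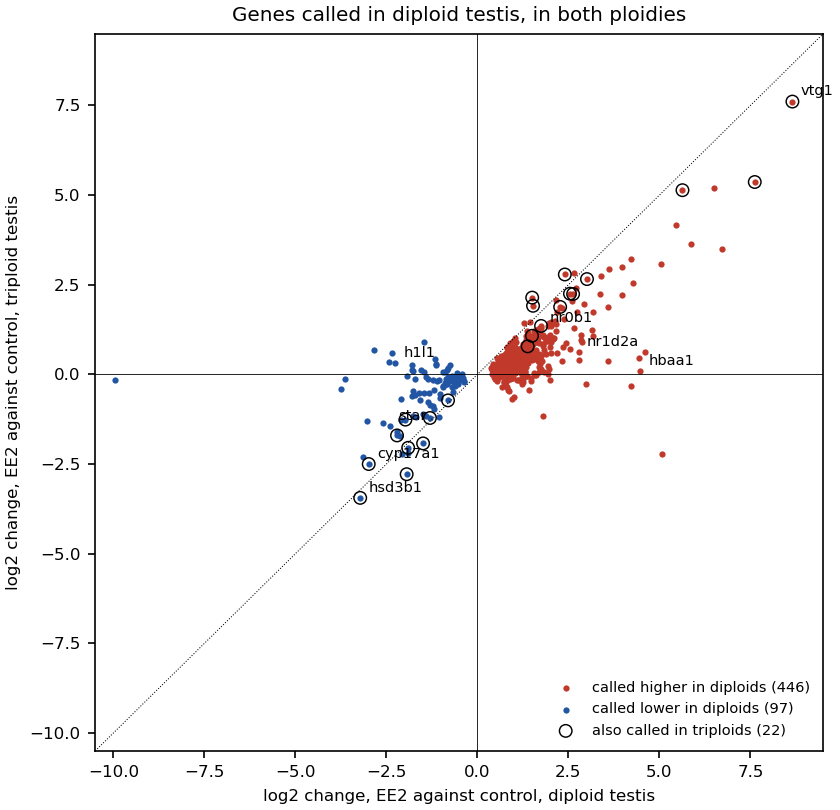
Log2 change in triploid testis against that in diploid testis for the 543 genes called in diploids, with the dotted line of equal change; circles mark the 22 also called in triploids. Of the 446 rises 394 lie above 0 on the triploid axis, and of the 97 falls 77 lie below it; distance from the line is no comparison of size, since the genes were picked by their diploid p.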

How the data were processed

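The submitters' processing notes name STAR and featureCounts, and per the file headers featureCounts 2.0.6 counted read pairs per gene on the Ensembl 113 annotation of GRCz11. The deposited table holds raw counts of 32520 genes in 16 libraries, not normalized, and an exon length in bases per gene, a deposited unit of other kind. That length served to describe genes and to set the limit of 1500 exon bases for the short genes near histone genes. Libraries were grouped by their titles. The triploid EE2 library whose title calls it an outlier was not fitted, so 15 libraries entered 1 fit in R 4.3.3: genes passing edgeR 4.0.16's filter by group, TMM scaling and the robust quasi-likelihood test with Benjamini-Hochberg adjustment over 23007 genes. Testing on simulated data preceded the fit. All adjusted p-values in the text are from this edgeR test unless another tool is named. Alternatives were DESeq2 1.42.0, limma-voom (limma 3.58.1), other scaling and filters, a replicate block and omission of libraries.

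Named genes were the 15 largest non-overlapping rises and falls with mean log2 CPM of at least 1 and a gene symbol, 28 fixed genes (27 tested), up to 4 called members of each list with the smallest p, and the 5 largest gains and losses of read pairs. The members, the 37 lists and this rule were chosen with earlier results of these data known. Symbols come from a gene name table, with capital symbols turned to zebrafish ones where exactly 1 RefSeq gene on that chromosome matched; 71 of 1092 list symbols were not matched. Replicate numbers did not pair the libraries (correlations of same-numbered deviations from -0.052 to 0.104). Depth was 7052508 to 17369549 read pairs in diploid libraries, and the median biological coefficient of variation was 20.4%. No sequences are printed.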

Additional observations from a re-analysis of the deposited data

Results flagged for a closer look

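Within each group of 4 diploid libraries, 388 sets of values were checked for 1 library lying far from the other 3, measured by its gap relative to the whole range, and 43 were found. For normally distributed values chance would give about 1 in 20, or 19.4. CPM values need not follow that distribution, so the 43 cannot be read as an excess. EE2 replicate 1 held 10, control replicate 1 10, EE2 replicate 3 9, control replicate 4 6, control replicate 2 3, EE2 replicate 4 3, control replicate 3 2 and EE2 replicate 2 0. The values share libraries, and their causes were not tested. All values below are CPM.

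EE2 replicate 3 was far above the other EE2 libraries for vtg1 (1220.0), vtg2 (300.2), vtg4 (52.3) and vtg5 (427), for the genes with the symbol F13A1 (187 for ENSDARG00000045453 and 9.93 for ENSDARG00000094832), for cldn3c (15.2) and for the luteinizing hormone receptor gene lhcgr (18.8). The summed estrogen-responsive genes stood at 2922 there. The liver list was also highest in that library, at 1272.

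EE2 replicate 1 was far above the others for the globin genes hbaa1 (415) and HBE1 (613), for AQP1 (15.6), epor (21.8), the endothelial receptor gene tie1 (23.3), the vascular peptide gene apln (39.4) and dusp6 (26.8). It was far below them for CYP11A1 ENSDARG00000092696 (5.41). Its summed erythrocyte genes were 2440.0 and its summed pancreas and gut genes 10240.0. EE2 replicate 4 was low for rgs5b (6.82) and for pltp (22.7), and high for the summed oocyte genes (173).

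Among controls, replicate 1 was far above the rest for leap2 (448), si:ch211-113a14.10 (794), the phospholipid transfer gene pltp (21.4) and the summed adipose genes (928), and far below them for ar (15.1). Its sums were also apart for ribosomal proteins (57320.0), respiratory chain subunits (9690.0), proteasome subunits (5658), genes with a histone symbol (13260.0) and short genes of the histone clusters (64330.0).

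Control replicate 4 was far above the other controls for mctp1b (145), fn1a (25.8), lcp1 (9.74), foxo3b (37.0) and the summed pancreas and gut genes (16020.0), and apart for the clock gene nr1d4b (3.20). Control replicate 3 was high for stm (17.9) and syt5a (8.46). Control replicate 2 was high for spata18 (33.0), and low for vtg7 (0.549) and txnipa (133).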

How the results depend on the processing

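The 543 calls became 193 with the 8 diploid libraries alone, 257 with all 16 libraries, 1207 with DESeq2 and 68 without EE2 replicates 1 and 3; each single omission left 251 to 656. RLE scaling (542), limma-voom (573), no filter on low counts (441), a stricter filter (537), and omission of control replicate 1 with EE2 replicate 1 (483) stayed within 1.5 times. Similar counts did not mean the same genes: of the 483, 326 were among the 543. The replicate block gave 407 calls, 373 of them among the 543. Only 1 of 4 replicate numbers had its own partner as best match. The interaction count of 0 became 43 with DESeq2, 1 without control replicate 1 and EE2 replicate 1, and 0 to 5 in the single omissions.

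Of 84 called named genes, 53 kept the call in each single omission and 22 in every alternative; of 16 not called, 3 were called in some alternative. Changes near 0 reversed in some: ldlra ranged from -0.104 to 0.091, ddx4 from -0.048 to 0.088 and dmrt1 from -0.068 to 0.129 in the single omissions. The ldlra change was -0.011 with the diploid libraries alone and -0.0065 with all 16, and without both control replicate 1 and EE2 replicate 1 ar was -0.070, fshr 0.118 and ddx4 -0.088. The causes were not tested. Of 39 list medians 24 kept their sign in all 19 alternatives.

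Dose, duration, age, sampling hour and fish per library are not stated, and 4 libraries a group limit the precision. Erythrocyte, pancreas and liver signal differed between single libraries. Counting of near-identical copies (vitellogenins, globins, histones, F13A1) is uncertain.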

Other observations

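The genes described here were chosen after their values were seen. Some genes of lipid handling were called higher: the phospholipid transfer gene pltp (1.90 ± 0.39 SE, adjusted p = 0.019), the lipoprotein lipase gene LPL (1.07 ± 0.22 SE, adjusted p = 0.019), the fatty acid activating gene acsl1b (1.26 ± 0.21 SE, adjusted p = 0.0049), the triglyceride synthesis gene dgat1a (1.66 ± 0.36 SE, adjusted p = 0.026) and ucp2 (1.42 ± 0.24 SE, adjusted p = 0.005), all as log2 changes. Of 8 omissions of 1 library, 5 ended the call of pltp, 4 that of LPL, 4 that of dgat1a and 0 those of acsl1b and ucp2. Some genes that respond to corticosteroids in other vertebrates were also called higher, with log2 changes of 1.75 for tsc22d3, 1.02 for klf9, 1.26 for ddit4 and 1.56 for foxo3b. No full list of such genes was counted in either direction, so these rises give no share or common direction for them. The tsc22d3 call ended in 7 of 8 single omissions, the klf9 call in 4, and those of ddit4 and foxo3b in 0. The corticosteroid-responsive gene fkbp5 stood at 11.8, 9.33, 13.9 and 72.7 CPM in controls and 215, 300.1, 315 and 256 CPM after EE2 and was not called (3.31, adjusted p = 0.055). Its groups did not overlap.

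The transcription factor genes snai1a (0.87), snai1b (1.296), snai2 (1.39) and zeb2a (0.96), known from mesenchymal cells, were called higher, calls that ended in 0, 5, 2 and 5 of 8 single omissions. So were the vascular peptide gene apln (2.00) and the gene of its receptor, aplnra (2.19); these calls ended in 6 and 5 of 8, and the apln change was 1.11 without EE2 replicate 1. The synaptic adhesion genes nlgn4xa (-1.06) and nlgn4xb (-1.17) were called lower (log2 changes), calls that ended in 0 and 5 of 8.

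Short genes near histone genes held called falls, and the median of the list moved with 1 library. Of 125 tested genes of at most 1500 exon bases within 40 kb of a gene with a histone symbol on chromosomes 7 and 25, 13 were called lower and 0 higher (median log2 -0.997). Called members included si:dkey-23a13.8 (-2.43), si:ch73-368j24.12 (-1.80) and h1l1 (-2.25). On chromosome 7, between 5904020 and 6470431, 10 of 55 were called lower, and on chromosome 25, between 35044524 and 36370292, 3 of 70. Their sum was highest in control replicate 1 (64333, 18019, 19308 and 16614 CPM in controls, 13938, 16535, 14284 and 16909.9 CPM after EE2), and the median without it was -0.18. Without that library 14 of these genes were called lower, and 3 were called higher. The 14 need not include all of the 13. Falls among these genes numbered 5 without EE2 replicate 1, 6 without EE2 replicate 3 and 22 without control replicate 4. Such copies are near-identical, so the counts of single members are uncertain.

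Neighbouring genes on chromosome 1 (GRCz11, 8575307 to 8597015) were low in control replicate 1 and in the EE2 libraries of diploids, but not in triploid EE2 libraries. ENSDARG00000113858 stood at 41.6, 483, 219 and 536 CPM in controls and 22.99, 12.97, 28.1 and 38.6 CPM after EE2 (log2 change -3.65 ± 0.80 SE, adjusted p = 0.03), a call that ended in 6 of 8 single omissions, and si:ch211-160d14.9 at 21.9, 178, 138 and 152 and 0.812, 13.6, 6.78 and 14.7 CPM (log2 change -3.75 ± 0.73 SE, adjusted p = 0.014). The gene si:ch211-160d14.15 had 0 read pairs in control replicate 1 and in all 4 EE2 libraries, and 255, 59 and 229 in control replicates 2 to 4. The triploid controls held 69 to 291 and the 4 triploid EE2 libraries 43 to 261. For ENSDARG00000113858 these ranges were 1453 to 6643 and 983 to 5785 read pairs.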
